A study of Mus musculus with 2 samples.

Results

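Alox5, Alox5ap, Lta4h, Ltc4s, Ptgs1, Ptgs2, Pla2g7 and Alox15 encode enzymes and a partner protein that make or break down lipid mediators of inflammation. These 8 genes were picked by symbol from the 32285 genes listed for a pair of mouse bone marrow libraries, and each of the 8 had unique molecular identifiers (UMIs, each standing for 1 captured transcript molecule) in both. Arachidonic acid released from membranes is oxidised by 5-lipoxygenase (Alox5), which takes its substrate from 5-lipoxygenase activating protein (FLAP, Alox5ap), to leukotriene A4. Leukotriene A4 hydrolase (Lta4h) turns it into leukotriene B4, a strong attractant of neutrophils, and leukotriene C4 synthase (Ltc4s) joins it to glutathione to give the cysteinyl leukotrienes. The cyclooxygenases (Ptgs1, constitutive, and Ptgs2, inducible) open the route to prostaglandins and thromboxane, Alox15 is the 12/15-lipoxygenase, and Pla2g7 is a secreted hydrolase that inactivates platelet-activating factor.

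The study asked what the kinase MAP4K4 does in neutrophil differentiation, and measured single-cell gene expression in marrow of mice aged 13 to 14 weeks. The mutant mice (labelled Map4k4-cko, here cKO) were Mx1-Cre Map4k4 f/f, in which Cre comes from an interferon-inducible promoter that is active in blood-forming cells and in other cells that respond to interferon, and was induced with poly I:C. The controls (Ctrl) are written in the methods as Mx1-Cre Map4k4-/-, the sources used here do not say how that notation relates to the floxed allele or whether these mice got poly I:C, and both groups were on a C57BL/6 background. For each genotype 1 library was made, from c-Kit+ bead-enriched cells and red-cell-lysed marrow mixed at 2 to 3 parts, and the number of mice behind it is not given in the sources used here. Genotype and library therefore cannot be told apart, no test between genotypes was possible, and every interval below is a 95% interval of counting error only.

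After the cell filters the Ctrl library held 9965 cells with a median of 4111 UMIs and the cKO library 6718 cells with a median of 6243.5 UMIs. Levels are given as CPM, the UMIs of a gene per 1000000 UMIs of all genes in the same cells. Map4k4 itself was at 72.6 CPM in Ctrl and 64.3 CPM in cKO, a log2 ratio of -0.17 (-0.23 to -0.12). The paper reports from RT-PCR that blood-forming stem and progenitor cells lost the transcript after poly I:C. Whether the 3′ tags counted here lie in the deleted stretch, and how complete the deletion was, was not tested. The libraries shared 3010 barcodes, 29.5% of those of Ctrl and 43.8% of those of cKO, but shared barcodes were no more alike in profile (median correlation 0.498) than each barcode with the next one of the list (0.499). Cells were named by marker gates that used none of the 8 genes, 9.48% of Ctrl and 7.31% of cKO cells met no gate, and each gate whose levels are given below carried all of its markers in Ctrl. The neutrophil path ran from ProNeu (Elane, Mpo) over PreNeu and imNeu (Camp, Ngp, Ltf) and im/mNeu (both sets) to mNeu (Retnlg, Mmp8, Cxcr2). PreNeu cells had at least 2 UMIs of the cell cycle genes Mki67, Top2a, Rrm2 and Pcna, making up at least 0.1%. The imNeu cells did not reach this. That split depends on depth, which had medians of 10385.5 (Ctrl) and 13033 (cKO) UMIs in PreNeu and 4729 and 6696 in imNeu. ProNeu-low is a range and not a stage: it holds progenitors with a lower share of the ProNeu markers, its 10 leading genes (Prg2, Lgals1, Irf8 and Cd34 first) held none of those markers, and its median depth was 5210.5 UMIs in Ctrl and 944 in cKO. The leading markers were at 14017 and 17024 CPM for Elane in ProNeu, 58274 and 53409 CPM for Camp in PreNeu, 34216 and 40345 CPM for Retnlg in mNeu and 25841 and 40300 CPM for Prss34 in the basophil/mast gate (Ctrl first here and in each pair below).

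The promoters are shown for Alox5, which was higher at the end of this path than before, and for Lta4h and Ptgs1, which were lower there. Each is the 250 bases before the RefSeq start (GRCm38.p6), read 5′ to 3′ on the gene's strand, and capitals mark a match to the ETS-type motif AGGAAGT, searched with its reverse complement.
Alox5, chr6:116461179-116461428, minus strand: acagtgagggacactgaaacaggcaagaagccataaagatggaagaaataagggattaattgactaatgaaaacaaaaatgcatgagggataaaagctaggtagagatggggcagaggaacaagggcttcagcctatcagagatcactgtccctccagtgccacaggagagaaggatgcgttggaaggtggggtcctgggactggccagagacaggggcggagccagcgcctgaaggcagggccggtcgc
Lta4h, chr10:93453146-93453395, plus strand: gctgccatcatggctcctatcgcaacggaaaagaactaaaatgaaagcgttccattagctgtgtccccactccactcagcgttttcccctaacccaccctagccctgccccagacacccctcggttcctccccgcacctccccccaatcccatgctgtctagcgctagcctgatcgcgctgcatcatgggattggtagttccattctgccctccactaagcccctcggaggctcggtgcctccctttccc
Ptgs1, chr2:36230176-36230425, plus strand: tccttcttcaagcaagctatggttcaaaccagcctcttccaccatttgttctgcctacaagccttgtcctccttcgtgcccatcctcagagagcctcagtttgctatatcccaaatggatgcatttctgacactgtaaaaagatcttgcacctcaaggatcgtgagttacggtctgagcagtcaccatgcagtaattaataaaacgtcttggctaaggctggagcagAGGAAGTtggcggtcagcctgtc
The motif stood 23 bases before the Ptgs1 start and 117 bases before the Ltc4s start, and 7.69% of 32851 windows of this length held it. The C/EBP-type motif TTNNGNAAT was in none of the 6 member windows listed by RefSeq and in 10.2% of all windows. A match is a string of letters and not a shown binding site, and a window without a match may hold a site with other letters.

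Alox5 (chr6:116410077-116461178, GRCm38, as are the gene positions below) had little transcript in progenitors and its highest levels in mature neutrophils and basophils. It was at 12.9 CPM in Ctrl and 7.94 CPM in cKO ProNeu, at 135 and 121 CPM in PreNeu, at 184 and 179 CPM in imNeu, at 252 and 232 CPM in im/mNeu, and at 275 (259 to 293) and 236 (224 to 248) CPM in mNeu. The step between ProNeu and PreNeu was the largest of this series in each library, and the intervals of im/mNeu and mNeu overlapped. The basophil/mast gate, of which 38 of 41 Ctrl cells and all 15 cKO cells had more Mcpt8 and Prss34 than Cpa3 and Cyp11a1 UMIs, held 334 (273 to 405) CPM in Ctrl and 590 (471 to 731) CPM in cKO. Monocytes were at 11.6 CPM in Ctrl and 5.58 CPM in cKO, close to the 8.59 and 5.73 CPM of erythroid progenitors. With every cell thinned to 1000 UMIs, 25.3% of Ctrl and 21.1% of cKO mNeu cells had an Alox5 UMI, against 1.06% of Ctrl B cells (46.9%, 66.5% and 2.47% unthinned, at median depths of 2207, 5696 and 1971 UMIs).

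Alox5ap (chr5:149264767-149288153) was present in more cell types than its partner enzyme and was higher at each later gate of the neutrophil path. From ProNeu through PreNeu, imNeu and im/mNeu the Ctrl library had 357, 606, 854 and 1102 CPM and the cKO library 395, 778, 1190 and 1631 CPM. In mNeu it reached 1377 (1340 to 1415) CPM in Ctrl and 2168 (2132 to 2204) CPM in cKO. The intervals of neighbouring gates on this path did not overlap in either library. Monocytes, which had almost no Alox5, held 765 CPM of Alox5ap in Ctrl and 1243 CPM in cKO. Those without cell cycle UMIs (called non-cycling) held more, 1016 and 1640 CPM, than those with them (called cycling), 592 and 825 CPM. The non-cycling cells were also shallower, with medians of 4936 and 9130.5 UMIs against 9192 and 17367.5. Basophil/mast cells were at 609 and 1131 CPM and plasmacytoid dendritic cells at 321 CPM in Ctrl and 505 CPM in the 8 cells of cKO. Erythroid progenitors had the lowest level in Ctrl among gates with at least 15 cells in each library, 37.7 CPM beside 27.9 CPM in cKO, and in cKO plasma cells (25.9 CPM, 8 UMIs) and B cells (15.1 CPM, 1 UMI) were lower still. After thinning, 75.1% of Ctrl and 86.8% of cKO mNeu cells had an Alox5ap UMI, and 5.80% of Ctrl B cells did (90.2%, 97.7% and 13.8% unthinned).

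Lta4h (chr10:93453411-93484875), which makes leukotriene B4, had the opposite course to Alox5 at the end of the path. It was at 750 (735 to 766) CPM in Ctrl ProNeu, 775 (760 to 790) CPM in PreNeu and 763 (742 to 784) CPM in imNeu. The intervals of neighbouring gates overlapped, which does not show that the levels were equal. The cKO library had 607, 712 and 704 CPM in the same gates, so ProNeu was below PreNeu in both libraries. In cKO the intervals of these 2 gates were apart (594 to 621 and 697 to 727 CPM). In im/mNeu the levels were 335 CPM in Ctrl and 304 CPM in cKO, and in mNeu 96.7 and 45.7 CPM, so that the mature gate was below the HSC/MPP level (116 and 101 CPM). Thinned shares of cells with an Lta4h UMI were 54.3% and 49.6% in imNeu (86.5% and 72.0% unthinned) and 9.42% and 5.21% in mNeu (21.2% and 21.9% unthinned). Ctrl B cells had a thinned share of 10.8% (20.5% unthinned). Their level was 105 CPM, beside 193 CPM in Ctrl T/NK cells, so they give no floor for this gene. The part of RNA from other cells in the mNeu level was not tested. In thinned imNeu cells Alox5 and Lta4h were found together in 9.93% of Ctrl and 7.02% of cKO cells. In mNeu the shares were 1.96% and 1.33%. Alox5 and Alox5ap were found together in 10.5% and 9.44% of imNeu and in 19.6% and 18.2% of mNeu cells. Such joint shares depend on the level of each gene, and no comparison with independent detection was made. They are not read as evidence of joint expression.

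Ltc4s (chr11:50236461-50238616), the synthase of the cysteinyl branch, was rare, with 108 UMIs in Ctrl and 65 in cKO in all kept cells. The HSC/MPP gate held 53.7% of these UMIs in Ctrl and 50.8% in cKO. There the level was 13.0 (9.84 to 16.8) CPM in Ctrl and 21.04 (14.5 to 29.5) CPM in cKO. Cells of that gate with Hlf or Mecom and no Flt3 UMI, markers of the most primitive cells, were at 11.3 and 30.6 CPM, from 15 and 16 UMIs in 148 and 45 cells. Those with both or neither were at 15.4 and 17.4 CPM, from 42 and 16 UMIs. Of the 52 and 25 cells of the gate with an Ltc4s UMI, 12 and 5 had 2 basophil/mast markers. From PreNeu to mNeu the gates held at most 2 UMIs per library each, and the macrophage levels of 33.2 and 22.0 CPM rested on 5 UMIs and 1 UMI. Basophil/mast cells, in which the cysteinyl leukotrienes are a known product, had 2 Ltc4s UMIs in each library, from 41 and 15 cells. This was 6.48 (0.79 to 23.4) and 14.0 (1.70 to 50.8) CPM, with intervals that overlapped those of HSC/MPP.

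Ptgs1 (chr2:36230426-36252272) was highest in PreNeu among the path's gates, which was also the highest gate of Lta4h. In Ctrl it was at 26.2 CPM in ProNeu-low, 101 CPM in ProNeu, 142 (136 to 149) CPM in PreNeu, 112 CPM in imNeu, 78.8 CPM in im/mNeu and 36.0 CPM in mNeu. The cKO library had 21.01, 74.3, 108 (103 to 114), 74.9, 45.3 and 13.6 CPM in the same order. Outside the path it was high in megakaryocytes, the source of thromboxane-making platelets, at 201 (170 to 236) CPM in 43 Ctrl cells and 121 (71.9 to 192) CPM in 6 cKO cells. Macrophages were at 133 (81.1 to 205) and 110 (35.7 to 256) CPM, and within HSC/MPP the Ctrl cells with Hlf or Mecom and no Flt3 were at 63.4 CPM and those with Flt3 and neither of the other genes at 6.98 CPM, from 84 and 3 UMIs. The inducible Ptgs2 (chr1:150100031-150108227) was close to nothing, with 69 UMIs in 51 Ctrl cells and 32 UMIs in 21 cKO cells, and no neutrophil-path gate exceeded 2.93 CPM.

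Pla2g7 (chr17:43568098-43612201) separated the last step of neutrophil maturation from all earlier ones. It was at 2.52 CPM in Ctrl and 2.18 CPM in cKO ProNeu, at 3.15 and 2.76 CPM in PreNeu, at 7.34 and 6.05 CPM in imNeu, at 24.6 and 47.6 CPM in im/mNeu and at 326 (308 to 345) and 452 (436 to 469) CPM in mNeu. Within mNeu the level also differed with Il1b: Ctrl cells with more Mmp8 than Il1b UMIs held 252 CPM and those with more Il1b than Mmp8 held 893 CPM, and the cKO library had 405 and 892 CPM. Macrophages were at 179 (118 to 261) and 264 (136 to 461) CPM, from 27 and 12 UMIs. Their median depths were 880.5 and 951 UMIs, and the cKO interval overlapped that of cKO mNeu. Monocytes were at 66.0 and 106 CPM, and non-cycling monocytes (139 and 194 CPM) were above cycling ones (16.0 and 12.7 CPM). After thinning, 27.8% of Ctrl and 34.7% of cKO mNeu cells had a UMI of it, against 1.06% of Ctrl B cells (45.1%, 75.3% and 1.73% unthinned).

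Alox15 (chr11:70344152-70352031) was a basophil transcript here. Of its 65 UMIs in Ctrl 41 were in the 41 cells of the basophil/mast gate, and of its 35 UMIs in cKO 26 were in the 15 cells of that gate. The level there was 133 (95.4 to 180) CPM in Ctrl and 183 (119 to 268) CPM in cKO, with UMIs in 46.3% and 80.0% of cells, and in 13.2% and 21.4% after thinning, which left 38 and 14 cells. No B cell of 405 in Ctrl had one. Ctrl macrophages had none in 100 cells, which allows 19.9 CPM, and cKO macrophages had 1 UMI in 30 cells. Of the 14 UMIs in Ctrl PreNeu, 8 came from 1 cell.

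**Figure D1:**
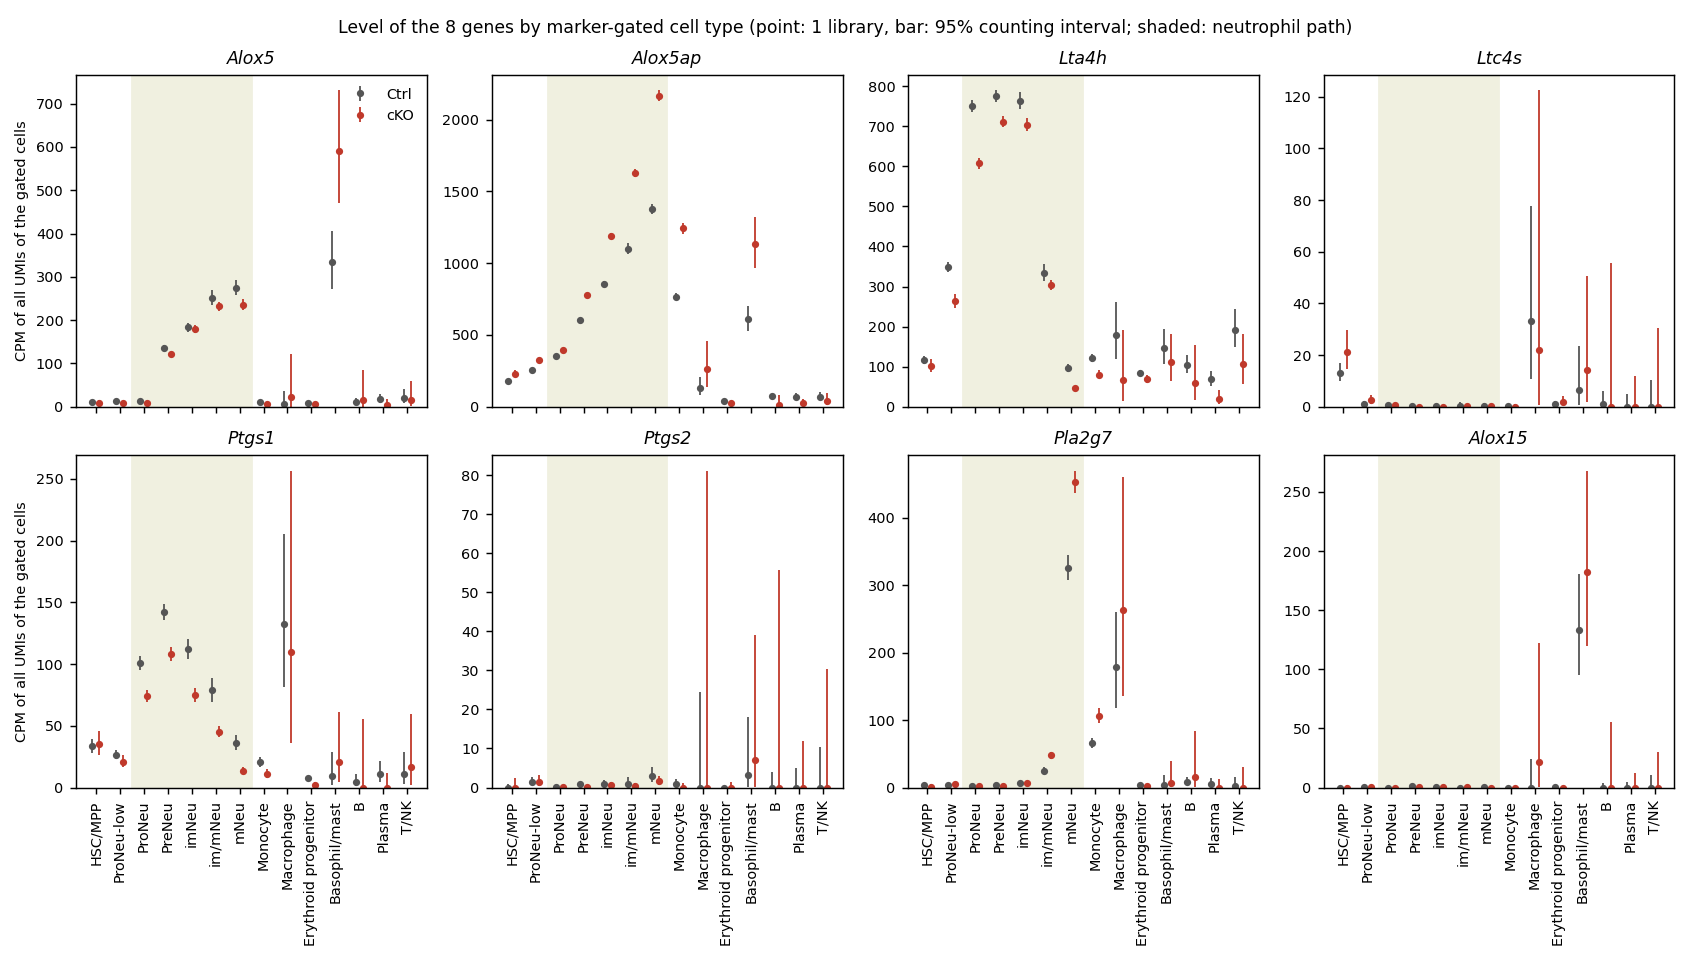
Level of each of the 8 genes (CPM, linear axis) in the 14 marker gates with at least 15 cells in each library, with Ctrl in grey, cKO in red, points for libraries, bars for 95% counting intervals and the neutrophil path from ProNeu to mNeu shaded. Alox5, Alox5ap and Pla2g7 are highest at the right end of the shaded path (among its gates), Lta4h and Ptgs1 are higher from ProNeu to imNeu than in mNeu, and Alox15 stands at 133 and 183 CPM in the basophil/mast gate.

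To follow the courses without gate borders, neutrophils from PreNeu to mNeu were binned by the share of mNeu markers in their summed imNeu and mNeu marker UMIs. Lta4h in Ctrl was at 786 CPM below 2%, 405 CPM between 10 and 25%, 190 CPM between 25 and 50% and 82.2 CPM between 75 and 90%. In cKO the same bins held 725, 379, 142 and 40.3 CPM. Alox5ap in those bins was at 653, 1019, 1149 and 1424 CPM in Ctrl and at 872, 1412, 1831 and 2259 CPM in cKO, and Alox5 at 146, 233, 278 and 251 CPM in Ctrl and 138, 214, 246 and 238 CPM in cKO. Both genes of the 5-lipoxygenase step were thus higher, and Lta4h lower, in the later bins than in the first. The gene for the leukotriene B4 receptor, Ltb4r1, was highest between 2 and 10% (411 and 425 CPM in Ctrl, 454 and 416 CPM in cKO) and lower in the last bins (64.3 and 123 CPM). The bins differed in depth between the libraries, with median UMIs of 3047 in Ctrl and 1215 in cKO between 10 and 25% and of 2273 and 5736 between 75 and 90%.

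**Figure D2:**
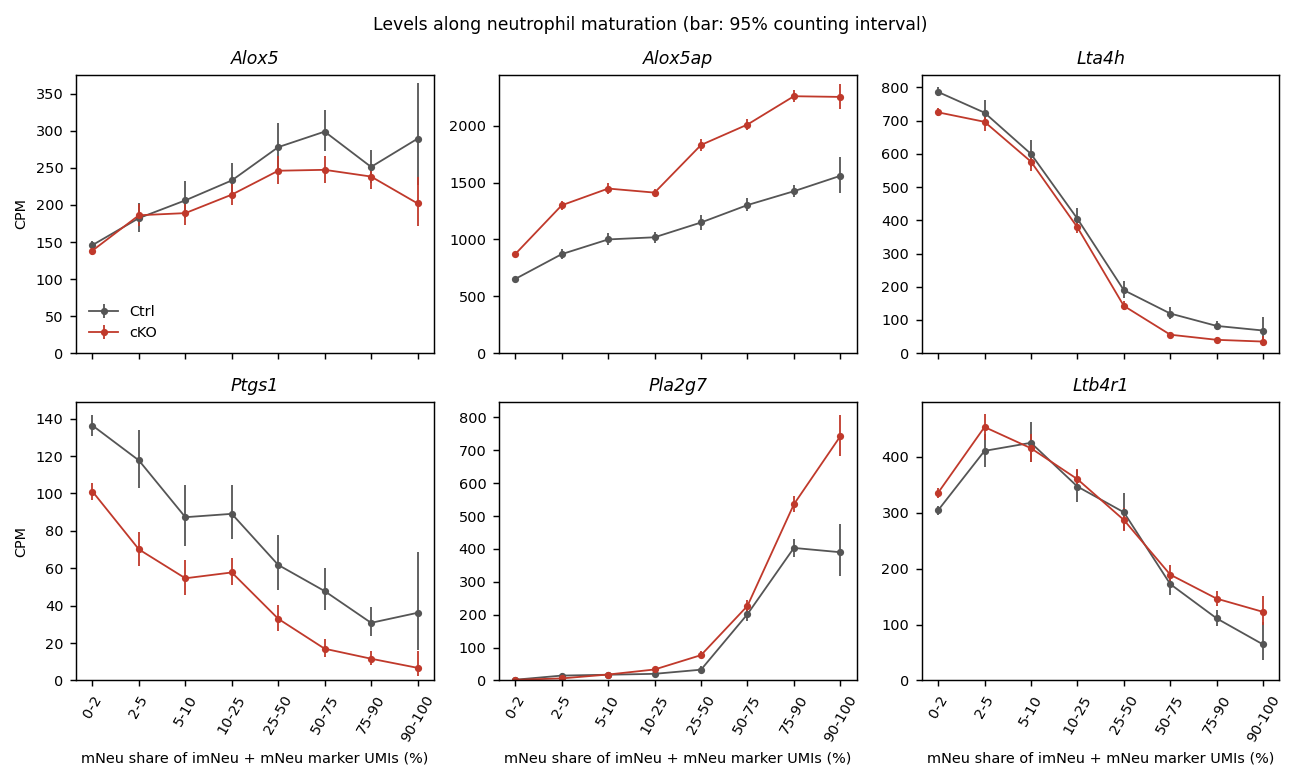
Level (CPM, linear axes) of the 5 members with most UMIs and of Ltb4r1 along 8 bins of neutrophil maturation, from less than 2% to over 90% mNeu markers, with Ctrl in grey, cKO in red and bars for 95% counting intervals. Lta4h goes from 786 to 68.3 CPM in Ctrl and from 725 to 35.0 CPM in cKO, and Alox5ap from 653 to 1559 and from 872 to 2253 CPM.

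Between the libraries, Alox5ap was higher in cKO in all 8 gates with at least 100 cells in each. Its log2 ratio (cKO over Ctrl) was 0.36 (0.17 to 0.54) in HSC/MPP, 0.15 (0.09 to 0.21) in ProNeu, 0.36 (0.32 to 0.40) in PreNeu, 0.48 (0.43 to 0.52) in imNeu, 0.57 (0.51 to 0.62) in im/mNeu, 0.65 (0.61 to 0.70) in mNeu and 0.70 (0.64 to 0.76) in monocytes. None of these reached 2-fold, the size used for counts here, except in mNeu after median-of-ratios scaling, which gave 1.02. That scaling centres the ratios of the abundant genes, whose median lay between -0.38 and -0.06 in these gates, and under it Alox5ap lay between 0.41 and 1.02. In erythroid progenitors, with 91 cells in cKO, the ratio had the other sign, -0.43 (-0.81 to -0.07).

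The log2 ratio of Alox5 was below 0 in ProNeu-low and in each neutrophil gate. It was -0.46 (-1.06 to 0.11) in ProNeu-low and -0.70 (-1.08 to -0.33) in ProNeu, and both stayed negative, at -0.33 and -0.44, under median-of-ratios scaling. In the later gates it was -0.16 (-0.26 to -0.06) in PreNeu, -0.03 (-0.14 to 0.07) in imNeu, -0.12 (-0.24 to -0.0014) in im/mNeu and -0.22 (-0.34 to -0.11) in mNeu, and these 4 became positive, between 0.14 and 0.30, under that scaling. The ProNeu ratio compares low Alox5 levels, 12.9 and 7.94 CPM, beside 8.59 and 5.73 CPM in erythroid progenitors. The part of RNA from other cells in it was not tested. In basophil/mast cells Alox5 stood at 0.82 (0.39 to 1.25) and Alox5ap at 0.89 (0.58 to 1.20), from 41 and 15 cells. Alox15 in the same cells was at 0.46 (-0.31 to 1.20).

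Lta4h and Ptgs1 had their lowest ratios among the neutrophil gates in mNeu. Outside these gates, monocytes were at -0.59 (-0.80 to -0.38) for Lta4h and -0.97 (-1.56 to -0.41) for Ptgs1. In HSC/MPP the 2 genes were at -0.19 (-0.46 to 0.06) and 0.07 (-0.40 to 0.53). In erythroid progenitors they were at -0.29 (-0.53 to -0.05) and -2.04 (-3.72 to -0.73), the latter from 55 and 5 UMIs. Lta4h was at -0.30 (-0.35 to -0.26) in ProNeu, -0.12 in both PreNeu and imNeu, -0.14 in im/mNeu and -1.08 (-1.31 to -0.86) in mNeu, and under median-of-ratios scaling PreNeu, imNeu and im/mNeu turned positive (0.18 to 0.24) while mNeu stayed at -0.72. Ptgs1 was at -0.44 in ProNeu, -0.39 in PreNeu, -0.58 in imNeu, -0.80 in im/mNeu and -1.40 (-1.80 to -1.002) in mNeu, where the scaling gave -1.04. Pla2g7 was higher in cKO im/mNeu (0.95, 0.60 to 1.32), mNeu (0.47, 0.38 to 0.57) and monocytes (0.68, 0.46 to 0.90). In non-cycling monocytes Pla2g7 was at 139 and 194 CPM, and in cycling ones at 16.0 and 12.7 CPM, where the intervals overlapped. In the whole monocyte gate the 9 mNeu markers, all detected in both libraries, summed to 1246 CPM in Ctrl and 1961 CPM in cKO. This was a log2 ratio of 0.65, beside the 0.68 of Pla2g7 and the 0.70 of Alox5ap. The imNeu markers (4361 and 3620 CPM) and the ProNeu markers (1737 and 1538 CPM) were lower in cKO there. The part of neutrophil RNA in the ratios of Pla2g7 and Alox5ap was not tested. The mNeu ratio of Pla2g7 was -0.051 when cells were named by clusters and 0.82 with doubled gate minima, and it lay near 0 in Il1b-rich mNeu cells (893 and 892 CPM).

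Counted by size, 2 of 6 members with at least 10 UMIs were past 2-fold in mNeu, both lower in cKO (Lta4h and Ptgs1), where 26.5% of 10040 genes were, 188 of them higher and 2477 lower. In PreNeu 2 of 7 were (Ptgs2 from 14 UMIs and Alox15 from 15), against 12.3% of all genes. In HSC/MPP it was 1 of 6 (Pla2g7, 15 and 2 UMIs) against 8.78%, and in monocytes 1 of 5 (Alox5, 58 and 19 UMIs, log2 ratio -1.06, -1.89 to -0.29) against 12.5%. The Alox5 ratio in monocytes was short of 2-fold with doubled gate minima (-0.67), with cells named by clusters (-0.78) and after median-of-ratios scaling (-0.92). No member passed it in ProNeu-low (of 7, 7.36% of genes), ProNeu (of 6, 6.97%), imNeu (of 6, 14.8%) or im/mNeu (of 5, 13.9%). After median-of-ratios scaling Alox5ap in mNeu (1.02), Pla2g7 in im/mNeu (1.33) and Ltc4s in ProNeu-low (1.10, from 10 and 9 UMIs) were past it too, all higher in cKO. Lta4h in mNeu (-0.72) was then short of it. The share of all genes past 2-fold under that scaling was not counted. The median log2 ratio of the members was -0.57 in mNeu, beside -0.51 over all genes, and -0.59 in monocytes, beside -0.24. With 5 to 7 members per gate these counts are values of single genes and are not read as a property of the set.

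**Figure D3:**
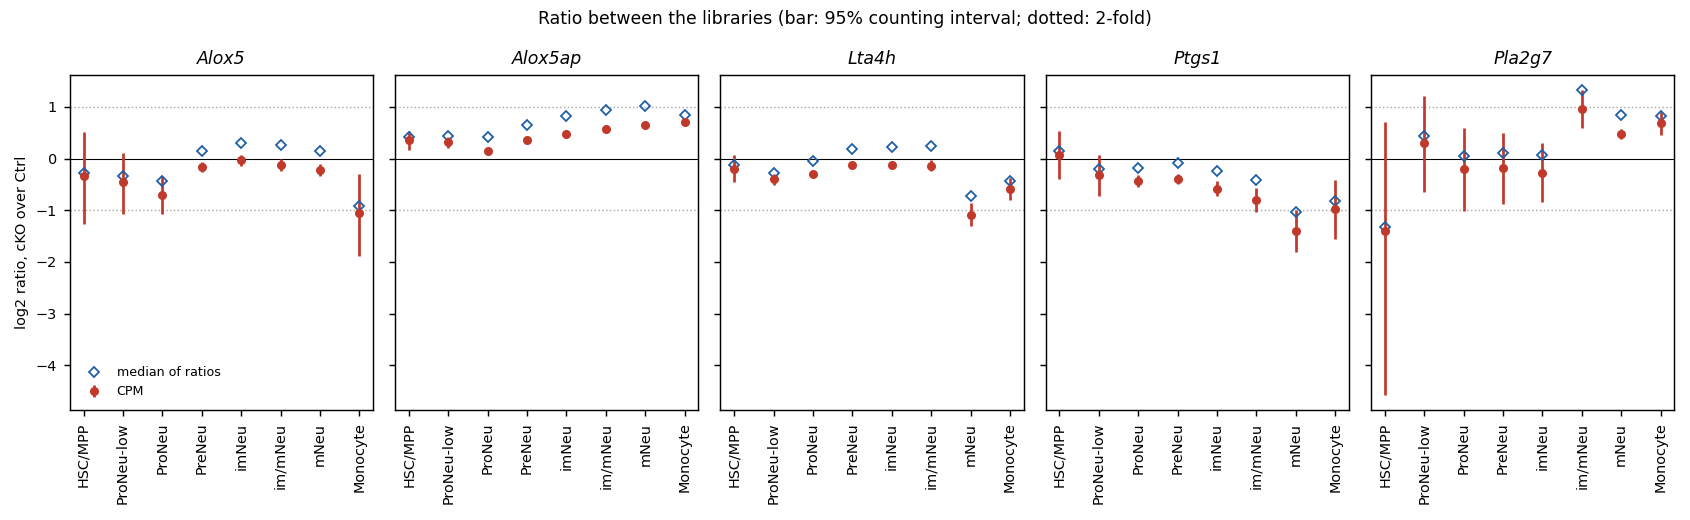
Log2 ratio of CPM, cKO over Ctrl, of the 5 members with most UMIs in the 8 gates with at least 100 cells per library (red points with 95% counting intervals) and after median-of-ratios scaling (open blue diamonds), with dotted lines at 2-fold. All 8 Alox5ap points lie above 0 on both scales, and Lta4h and Ptgs1 drop to -1.08 and -1.40 in mNeu.

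Markers of other cell types also differed between the libraries in the mNeu gate. The 6 ProNeu markers, all detected in both libraries, summed to 1352 CPM in Ctrl and 636 CPM in cKO mNeu cells, and the 6 erythroblast markers, also all detected, to 643 and 56.2 CPM. The 8 macrophage markers summed to 31.4 CPM in Ctrl, with Mertk at 0, and to 2.48 CPM in cKO, with C1qc, Axl, Mertk, Cd5l and Spic at 0. B cell markers (83.1 and 4.80 CPM) and plasma cell markers (162 and 11.3 CPM) were lower in cKO too. The imNeu markers (15271 and 17563 CPM) and the basophil/mast markers (367 and 442 CPM, Il6 at 0 in both) were higher in cKO. Median depth was 2207 UMIs per mNeu cell in Ctrl and 5696 in cKO, so the cells were split by their own depth. Among cells with 2000 to fewer than 5000 UMIs (773 in Ctrl, 381 in cKO) Lta4h was at 87.6 (76.1 to 100) and 43.9 (33.7 to 56.3) CPM and Ptgs1 at 35.5 and 8.50 CPM, with ProNeu markers at 1218 and 876 CPM. Among cells with at least 5000 UMIs Lta4h was at 85.3 and 42.7 CPM and Ptgs1 at 43.7 and 14.8 CPM, with ProNeu markers at 928 and 515 CPM. Among those under 2000 UMIs Lta4h was at 127 (104 to 152) and 217 (136 to 328) CPM, the latter from 22 UMIs, with overlapping intervals. The ProNeu markers were higher in cKO there (1926 and 3175 CPM). Ptgs1 was at 33.0 and 29.6 CPM there, the latter from 3 UMIs. From the shallowest class to the deepest, the imNeu markers were at 12764 and 20598.5, 14998 and 14987, and 21354.5 and 18237 CPM. Alox5ap was higher in cKO in all 3 depth classes, at 1444 and 1735, 1396 and 2205, and 1155 and 2166 CPM, with overlapping intervals in the shallowest. Pla2g7 was at 468 and 444 CPM in the shallowest class, where its intervals overlapped too, and at 301 and 495 and at 179 and 440 CPM in the others. The part of RNA from other cells in the Lta4h and Ptgs1 ratios was not tested further.

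**Figure D4:**
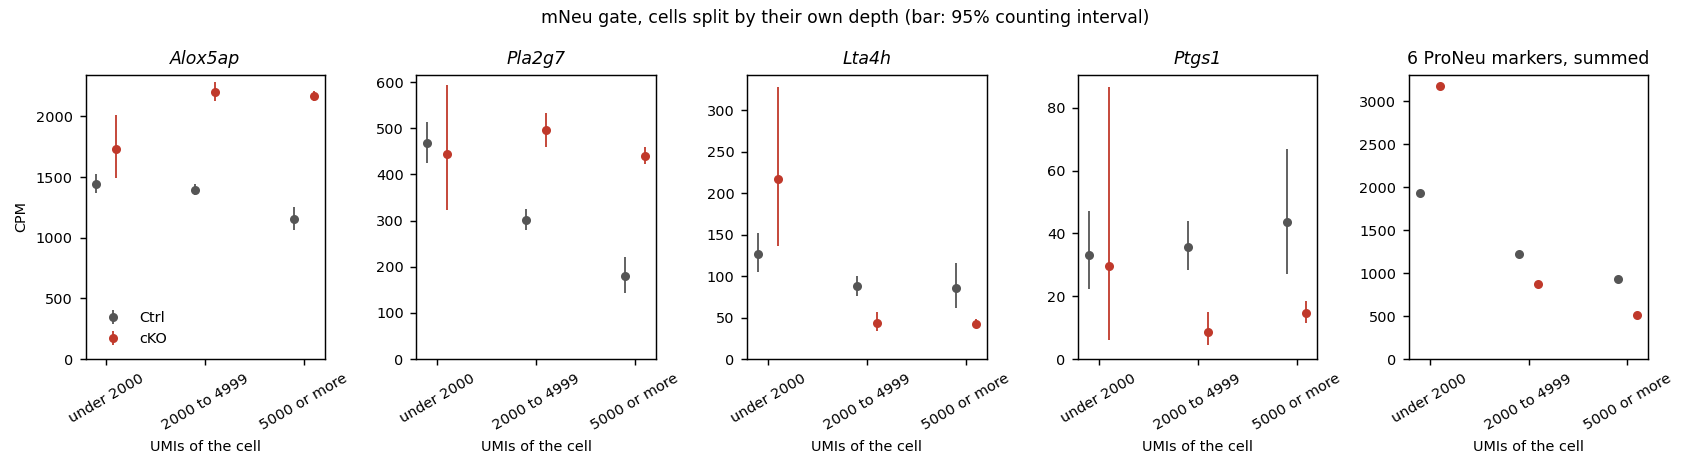
Levels in mNeu cells (CPM, linear axes) split by the UMIs of the cell, for Alox5ap, Pla2g7, Lta4h, Ptgs1 and the summed 6 ProNeu markers, with Ctrl in grey, cKO in red and bars for 95% counting intervals on the genes. Alox5ap is higher in cKO in each class, and Lta4h and Ptgs1 are lower in cKO in the classes from 2000 UMIs on.

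The other genes of the pathway came from a list of 62, of which 60 were found in the files. Cyp4f18, which degrades leukotriene B4, was highest in mNeu at 509 and 528 CPM and thus shared the end of the path with Alox5 and Alox5ap, and Mgst2, a relative of Ltc4s that can make leukotriene C4, was highest in imNeu at 367 and 424 CPM. The receptors with the highest levels were Fpr2 (im/mNeu, 708 and 497 CPM) and Fpr1 (mNeu, 324 and 384 CPM), which sense formyl peptides, and Ltb4r1 (imNeu, 399.5 and 436.5 CPM). Mgst3 was highest in erythroid progenitors (157 and 172 CPM). Lpcat2, which makes platelet-activating factor, was highest in mNeu (276 and 247 CPM), the same gate as Pla2g7, which degrades it, and Pafah1b1 and Pafah1b3 were highest in B cells (206 and 317, 184 and 227 CPM, from 405 and 16 cells). Prostanoid synthases were led by Ptges3 (ProNeu-low, 339 and 343 CPM), Hpgds (macrophages, 239 and 242 CPM) and Prxl2b (macrophages, 286 and 220 CPM). The breakdown enzyme Hpgd was also highest in macrophages (452 and 308 CPM), and Ptgr1 and the exporter Abcc4 were highest in ProNeu (232 and 237, 53.7 and 33.3 CPM). Of the other lipoxygenases Alox12e (42.1 and 7.02 CPM) and Alox8 (6.48 and 70.2 CPM) were found in basophil/mast cells, from 13 and 1 and from 2 and 10 UMIs, and Aloxe3 did not exceed 0.17 CPM in its highest gate in Ctrl.

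**Figure D5:**
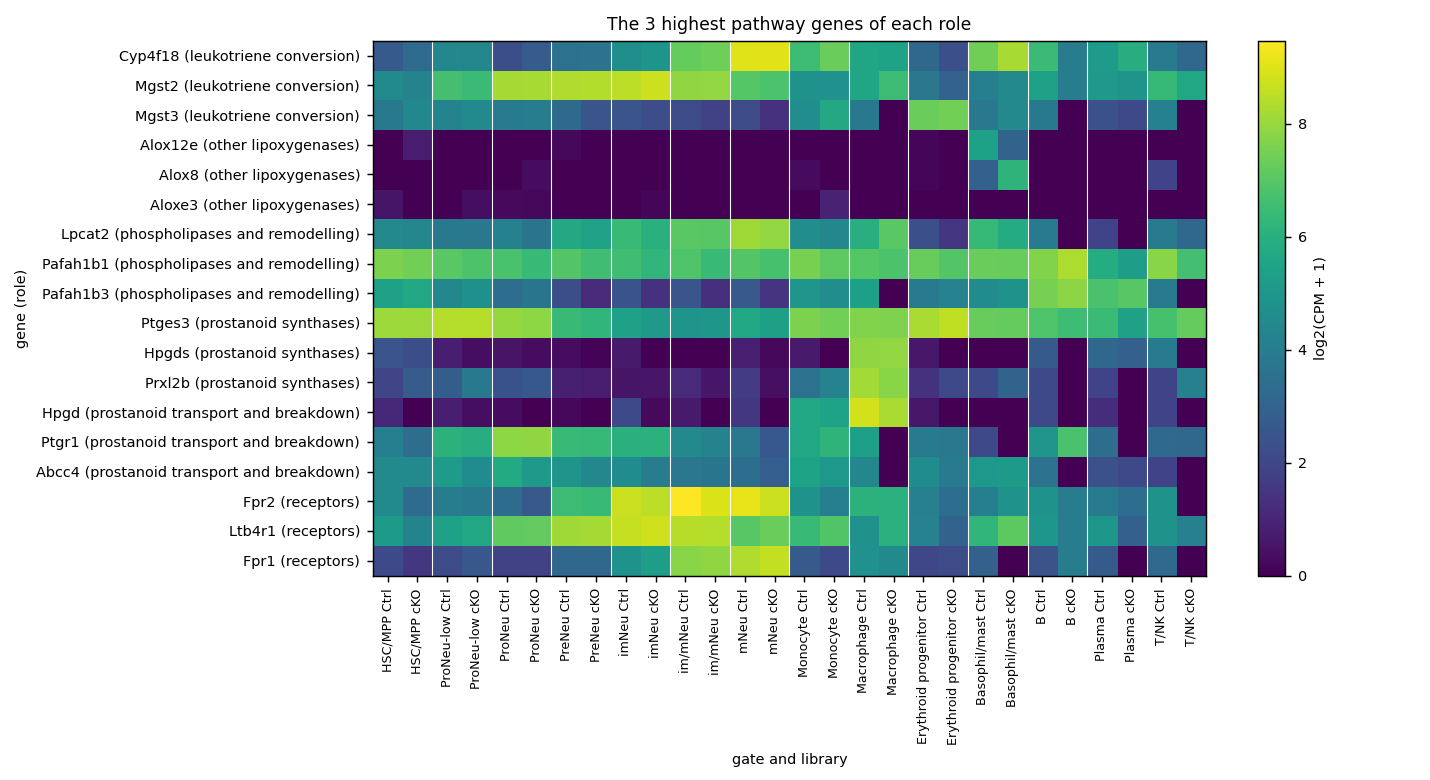
Heat map of log2(CPM + 1) for the 3 highest genes of each role of the pathway list (rows) in 14 gates and both libraries (columns). Cyp4f18, Mgst2 and the receptor genes Fpr1, Fpr2 and Ltb4r1 are brightest on the neutrophil path, and Hpgds, Prxl2b and Hpgd in macrophages.

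Between the libraries, 1 pathway gene was higher and 11 lower past 2-fold among 35 measured in mNeu, where 26.5% of all genes were past 2-fold. The higher one was Ggt1, a glutamyl transferase that converts leukotriene C4, at 21.3 and 77.0 CPM (log2 1.85, 1.51 to 2.21), and it was also higher in im/mNeu (17.1 and 38.5 CPM). The lower ones were Pla2g4a, the phospholipase that frees arachidonic acid (18.7 and 6.505 CPM), Tbxas1, thromboxane synthase (26.4 and 9.29 CPM), Lpcat1 (14.1 and 6.04 CPM), Ptgr1 (12.8 and 5.11 CPM), and Pla2g12a, Pafah1b3, Pafah2, Mgst3, Abcc1, Prxl2b and Ptger4, each under 7 CPM in both. Each of these 11 had its highest level in a gate other than mNeu, such as macrophages for Tbxas1 and ProNeu for Ptgr1. The part of RNA from other cells in their mNeu ratios was not tested. The values are before median-of-ratios scaling, and the median ratio of the abundant genes in mNeu was -0.36. The median log2 ratio over the 35 genes was -0.58, beside -0.51 over all genes. In im/mNeu 3 of 34 were lower (Pla2g12a, Pafah1b3 and Ptgdr), in imNeu 4 of 34 (Pla2g12a, Pafah1b3, Cbr1 and Hpgd), and in PreNeu 2 of 36 (Pla2g12a and Pafah1b3), each at or below 5 CPM in Ctrl, beside 13.9%, 14.8% and 12.3% of all genes in these gates. In ProNeu 1 of 40 was lower (Pla2g4b) and 1 higher (Ephx2), beside 6.97% of all genes past 2-fold. In ProNeu-low 2 of 41 were lower (Pla2g4b and Ephx2) and 4 higher, beside 7.36% of all genes. The higher ones in ProNeu-low were Cysltr1 (2.25 and 6.82 CPM), Prxl2b (5.998 and 13.1 CPM), Ggt1 and Ptgds. There the 9 mNeu markers, all detected, summed to 744 and 1059 CPM, and the part of this and of the depth gap in those differences was not tested. In monocytes 1 of 38 was higher, Mgst3 (24.3 and 51.7 CPM, log2 1.09, 0.75 to 1.44). Lower there were 3 of the 38, Ggt1, Ptger1 and Tbxa2r (13 and 0 UMIs), and 12.5% of all genes were past 2-fold either way. In macrophages, with 30 cells in cKO, Ptafr (139 and 286 CPM), Pla2g15 and Lpcat2 were higher and Plaa lower, and each interval there held 0.

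Over the 28 points given by 14 gates in each library, the genes whose log2(CPM + 1) was most like that of a member were Syne1 (r = 0.89), Arap3 and Dgat1 (r = 0.87 each) for Alox5, Gyg (r = 0.92), Nhsl2 and Fgd4 (r = 0.91 each) for Alox5ap, and Lrrc25 (r = 0.93), Ccl6 (r = 0.92) and Pira2 (r = 0.90) for Pla2g7. For Lta4h they were Cebpe (r = 0.88), Hmgn2 and Tmem216 (r = 0.87 each), and for Ptgs1 Ncoa4, Itpripl2 (r = 0.87 each) and Mctp1 (r = 0.84). Between members r was 0.69 for Alox5 and Alox5ap, 0.74 for Lta4h and Ptgs1 and -0.20 for Lta4h and Pla2g7. The points share libraries and depth and many gates are neighbours on 1 path, so these values only describe likeness. Alox5ap, Ltc4s, Ptgs1 and Pla2g7 overlap genes annotated on the opposite strand.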

How the data were processed

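Single-cell 3′ libraries (BMKMANU DG1000) of 1 Ctrl and 1 cKO marrow preparation were analysed. The deposited matrices hold UMI counts per gene and barcode that the authors made with Cell Ranger 5.0.0 on the mouse genome (mm10, GRCm38), with no normalization. The study's integration of both libraries, its clusters and its cell names were not used here, and its analysis set was smaller than the barcodes kept here.

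There were 10220 and 6872 barcodes, and the study's limits were applied to them (no fewer than 200 and no more than 9000 genes found, mitochondrial share up to 30%), which left 71282090 and 64241692 UMIs. A cell was named when at least 3 UMIs from at least 2 markers of a type made up a minimum share of its UMIs, with ceilings on neutrophil markers. The study's removal of doublets was not repeated, and cells that met gates of more than 1 lineage made up 1.84% and 1.10%. UMIs were summed per gate and library. Intervals are exact Poisson for CPM, Clopper-Pearson for shares, and binomial for ratios. A gene entered the counts of 2-fold differences with at least 10 UMIs over both libraries, and a count of 0 was given the limit of 3 UMIs. For shares, cells were thinned to 1000 UMIs and shallower cells left out. Likeness used genes with at least 50 CPM in at least 1 gate of each library.

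The genes named were the 8 members, the 3 genes most like each member with at least 200 UMIs, the 3 highest genes of each pathway role, every pathway gene past 2-fold in neutrophil, monocyte or macrophage gates, Map4k4 and leading markers. Members, gates and lists were chosen with earlier results of these data known. Marker gates were taken over from an earlier analysis of the same cells. The calculations were tested on simulated data. Promoters came from RefSeq, which matched 6 of the 8 members (not Alox5ap and Alox15), and positions from GENCODE. Python 3.11.15, numpy 2.4.6, scipy 1.17.1 and pandas 2.3.3 were used.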

Additional observations from a re-analysis of the deposited data

How the results depend on the processing

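No paired analysis was possible because each group has 1 library and no replicate could be left out. Over 9 log2 ratios, 77 of 88 alternative values stayed within the counting interval of the main value and 11 moved out of it. Median-of-ratios scaling gave 1.02 for Alox5ap, 0.84 for Pla2g7 and -0.72 for Lta4h in mNeu, and 0.18 for Lta4h and -0.095 for Ptgs1 in PreNeu, because it adds each gate's shift of the abundant genes. Naming cells by Leiden clusters gave 0.59 for Alox5ap and -0.051 for Pla2g7 in mNeu, averaging each cell's own proportion gave 0.60, 0.34 and -0.83 for Alox5ap, Pla2g7 and Lta4h there, and doubled gate minima gave 0.82 for Pla2g7; the cause was not tested. The sign changed for Lta4h in PreNeu under the scaling, Pla2g7 in mNeu under the clusters and Alox15 in basophil/mast cells under the average over cells (-0.21). Clusters gave 72.4% of Ctrl and 67.0% of cKO cells the same name and named no basophil/mast cells in cKO, so Alox5 and Alox15 have no ratio there. The 6 member values past 2-fold became 3 with at least 50 UMIs, since genes with fewer were no longer counted. Leaving out shared barcodes or cells of more than 1 lineage was chosen after seeing the data. So were the ratios of Lta4h and Ptgs1 in mNeu and of Alox5 in monocytes, which are among the 9. Of 154 alternative values for 16 CPM levels, 31 moved out of the counting interval, and 14 of 16 shares of cells did so after thinning. Depth limits Ltc4s, Ptgs2 and Alox15 most, with 32 to 108 UMIs per library.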

Other observations

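In cells that met no gate, Ctrl held 19 Ptgs2 UMIs in 10 cells, 27.5% of its Ptgs2 UMIs, and cKO held 1. The eosinophil gate, a cell type known for Alox15 and Ltc4s, took 4 cells in Ctrl and none in cKO and was left out of all levels.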
